A study of Homo sapiens with 3 samples.

Results

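LINC00152, now named CYTOR, and MIR4435-1HG are a pair of long noncoding RNA genes on chromosome 2 that arose from a duplication and are transcribed in opposite directions. In the list of m6A regions from nuclear RNA of MDA-MB-231, a human cell line established from a breast cancer, 178 of 41836 regions had their midpoint in these loci, 58 in LINC00152 and 120 in MIR4435-1HG. A region was a member if its midpoint lay between 87754000 and 87822000 (LINC00152, plus strand) or between 111953000 and 112254000 (MIR4435-1HG, minus strand) in hg19, on either strand. The loci were chosen by their dense regions in this same list, so the number of regions is a description and supports nothing. Nuclear RNA had been captured with a rabbit m6A antibody in 2 libraries and with rabbit IgG in 1 library. The deposited list holds no value for a single library, so read depth and enrichment over IgG are unknown, the m6A libraries cannot be compared with each other, and each value is given without a replicate error or a test.

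N6-methyladenosine (m6A) is a methyl mark that the METTL3 and METTL14 complex writes on adenosine while RNA is being made, so it can lie in introns and on noncoding RNA as well as on mRNA. CYTOR, the cytoskeleton regulator RNA, is raised in many human tumours and is studied for its part in cell migration and proliferation. MIR4435-1HG is listed in RefSeq as a synonym of MIR4435-2HG, together with MORRBID, the name of a noncoding RNA known in mouse for controlling the lifespan of short-lived myeloid cells through the cell death gene Bcl2l11. Primary transcripts of microRNAs are among the nuclear RNAs that METTL3 is known to mark.

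The copies share long stretches of sequence, as the promoters show. RefSeq places CYTOR on the plus strand at chr2:87455427-87521518 in GRCh38, over 66.1 kb, and MIR4435-2HG on the minus strand at chr2:111195866-111495161, over 299.3 kb. The RefSeq promoter windows, from 250 bases before to 50 bases after each gene's start, are shown 5′ to 3′ on the strand of the gene, with the stretch they share in capitals. The shared stretch is 241 bases without a difference, and the windows are offset by 59 bases because the annotated starts differ.
CYTOR (plus strand, chr2:87455177-87455476): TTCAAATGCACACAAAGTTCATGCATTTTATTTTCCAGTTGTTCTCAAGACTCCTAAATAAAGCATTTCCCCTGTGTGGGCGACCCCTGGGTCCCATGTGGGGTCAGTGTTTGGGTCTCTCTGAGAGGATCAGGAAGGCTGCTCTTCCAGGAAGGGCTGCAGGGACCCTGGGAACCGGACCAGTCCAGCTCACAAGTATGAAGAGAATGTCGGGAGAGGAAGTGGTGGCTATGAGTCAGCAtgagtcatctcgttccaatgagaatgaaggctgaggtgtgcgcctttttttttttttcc
MIR4435-2HG (minus strand, chr2:111495112-111495411): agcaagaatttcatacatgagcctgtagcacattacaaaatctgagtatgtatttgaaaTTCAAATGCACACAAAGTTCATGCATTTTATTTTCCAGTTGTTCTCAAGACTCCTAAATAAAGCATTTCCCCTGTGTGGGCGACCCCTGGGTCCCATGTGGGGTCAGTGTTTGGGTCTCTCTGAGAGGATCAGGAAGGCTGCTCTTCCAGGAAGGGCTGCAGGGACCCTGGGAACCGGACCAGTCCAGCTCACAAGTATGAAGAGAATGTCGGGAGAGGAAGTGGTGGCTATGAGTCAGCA

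Both copies also carry a hairpin of the same microRNA, which gave MIR4435-1HG its name. The hairpins are shown with the mature microRNA in capitals, and the mature sequence with its seed, bases 2 to 8, in capitals. All 74 bases of the MIR4435-2 hairpin occur within the 80 bases of the MIR4435-1 hairpin, and the mature sequences are the same.
MIR4435-1 hairpin (plus strand, chr2:87629755-87629834, GRCh38): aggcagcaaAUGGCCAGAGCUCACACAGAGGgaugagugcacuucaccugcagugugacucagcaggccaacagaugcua
MIR4435-2 hairpin (minus strand, chr2:111321013-111321086, GRCh38): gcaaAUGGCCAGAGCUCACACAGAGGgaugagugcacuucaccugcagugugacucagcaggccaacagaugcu
hsa-miR-4435, from either hairpin: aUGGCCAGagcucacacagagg
The MIR4435-1 hairpin lies 174.3 kb downstream of the RefSeq start of CYTOR. It is beyond the end of the RefSeq gene but inside the longer CYTOR gene of GENCODE release 29, where all of its bases are exonic. The MIR4435-2 hairpin lies 174.1 kb downstream of the start of MIR4435-2HG, inside the gene in both annotations and in an intron in GENCODE.

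The exons were compared through the GENCODE transcripts, 38 of CYTOR and 25 of MIR4435-2HG. Stretches of 25 bases found once in the exons of each gene formed 12 matching blocks, 8 of them within 70 kb of the CYTOR start and 4 beyond. The blocks held 4216 exon bases, 23.8% of the 17693 exon bases of CYTOR and 32.2% of the 13094 of MIR4435-2HG. Within them 4191 bases were identical, which follows in part from how the blocks were found, and the longest run without a difference was 367 bases. The last block ended 181.1 kb from the CYTOR start, and the sequence under the regions and in introns was not compared. How reads that match both copies were placed is not given in the sources used here. Where a region lies in sequence that both copies share, its source in one RNA, in the other or in both cannot be told apart.

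All 58 regions of LINC00152 lay on the plus strand, and 119 of the 120 regions of MIR4435-1HG on the minus strand. The 1 exception was a plus-strand region of 40 nt from 112225357 to 112225396. When same-strand regions up to 10 kb apart were joined, the LINC00152 regions formed 1 chain, the twelfth by number of regions among 16073 chains of the list. The MIR4435-1HG regions fell into 9 chains, of which the largest held 69 regions, at rank 6 among the same 16073 chains, and the next 20. The regions nearest to the windows lay far outside them: 21.4 kb above LINC00152 (plus strand, 87843323 to 87843444), 109.8 kb below it, and 73.3 kb below and 296.0 kb above MIR4435-1HG. Inside, the LINC00152 regions ran from 87755431 to 87817915 and the MIR4435-1HG regions on the minus strand from 111961676 to 112252197.

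Over the whole windows LINC00152 was the denser locus, with 0.853 regions per kb of its 68 kb against 0.399 per kb of the 301 kb of MIR4435-1HG, a ratio of 2.14. The regions covered 4611 nt (6.78%) of LINC00152 and 8145 nt (2.71%) of MIR4435-1HG. Over equal lengths from the upstream end the order turned. The first 68 kb of LINC00152 held 58 regions and the first 68 kb of MIR4435-1HG held 67 on both strands, a ratio of 0.866. The difference in density over the whole windows therefore comes with their unequal lengths. The downstream 233 kb of MIR4435-1HG held 53 minus-strand regions at 0.227 per kb. The 233 kb after the LINC00152 window, which its count leaves out, held 23 plus-strand regions at 0.0987 per kb. GENCODE gives CYTOR 182 kb and MIR4435-2HG 486.6 kb in GRCh38, so both windows are shorter than these genes. Regions after the LINC00152 window can thus lie in the longer CYTOR gene, and the densities compare windows rather than whole genes.

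**Figure D1:**
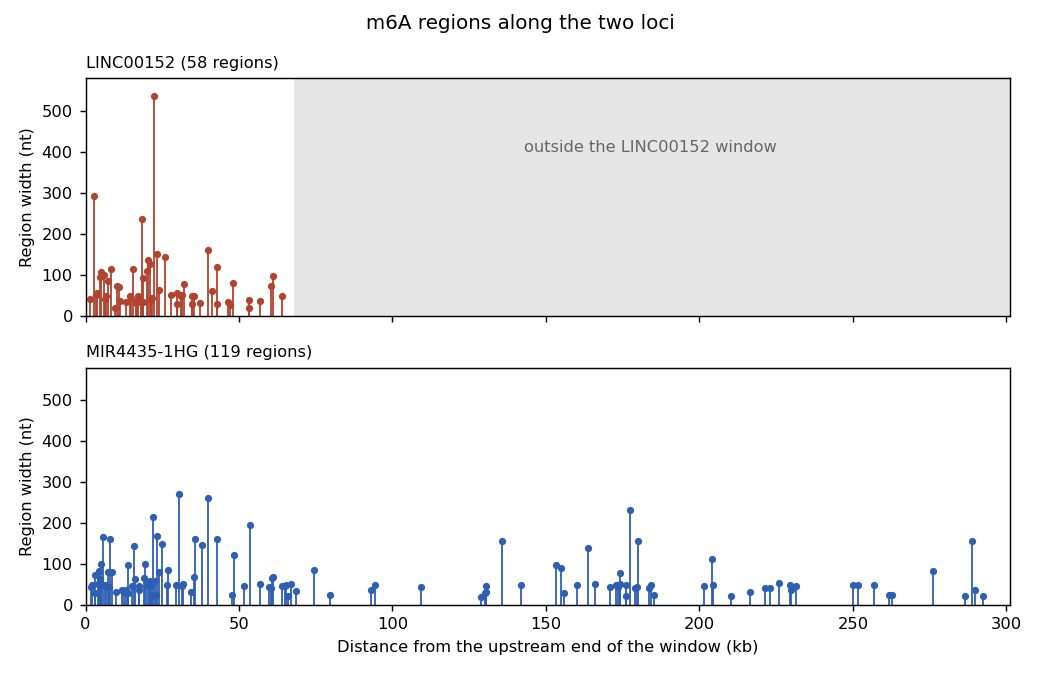
Each line is 1 m6A region on the transcribed strand, at its midpoint's distance from the upstream end of the window (kb, horizontal) and with its width (nt, vertical), for the 58 regions of LINC00152 above and the 119 of MIR4435-1HG below. In both loci the regions crowd within the first 40 kb, and MIR4435-1HG has a second group between 170 and 190 kb.

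The density was lower further along both transcripts. In the first 20 kb LINC00152 held 27 regions (1.35 per kb) and MIR4435-1HG 29 (1.45 per kb). From 20 to 40 kb LINC00152 held 19 regions (0.950 per kb) and MIR4435-1HG 22 (1.10 per kb). From 40 to 68 kb the numbers were 12 in LINC00152 (0.429 per kb) and 15 in MIR4435-1HG (0.536 per kb). In stretches of this size both loci were densest next to their upstream end, and MIR4435-1HG held slightly more regions in each of the 3.

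Single steps of 10 kb differed between the copies. Distances run from the window ends, so matching positions of the copies can fall in different steps. For example, a LINC00152 region at 19.965 kb was matched, as described below, with a MIR4435-1HG region at 20.677 kb. The part of this in the differences between steps was not tested. LINC00152 held 12, 15, 11, 8, 6 and 3 regions in the successive steps up to 60 kb, and MIR4435-1HG held 17, 12, 14, 8, 3 and 4. From 40 to 60 kb LINC00152 thus held 9 regions and MIR4435-1HG 7, and from 60 to 68 kb LINC00152 held 3 and MIR4435-1HG 8. LINC00152 was densest from 10 to 20 kb and MIR4435-1HG from 0 to 10 kb. Covered length did not follow the counts throughout. In the first 20 kb the regions covered 2089 nt of LINC00152 and 1927 nt of MIR4435-1HG, and from 20 to 40 kb 1865 nt of LINC00152 and 2141 nt of MIR4435-1HG. From 40 to 68 kb they covered 657 nt of LINC00152 and 1028 nt of MIR4435-1HG.

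**Figure D2:**
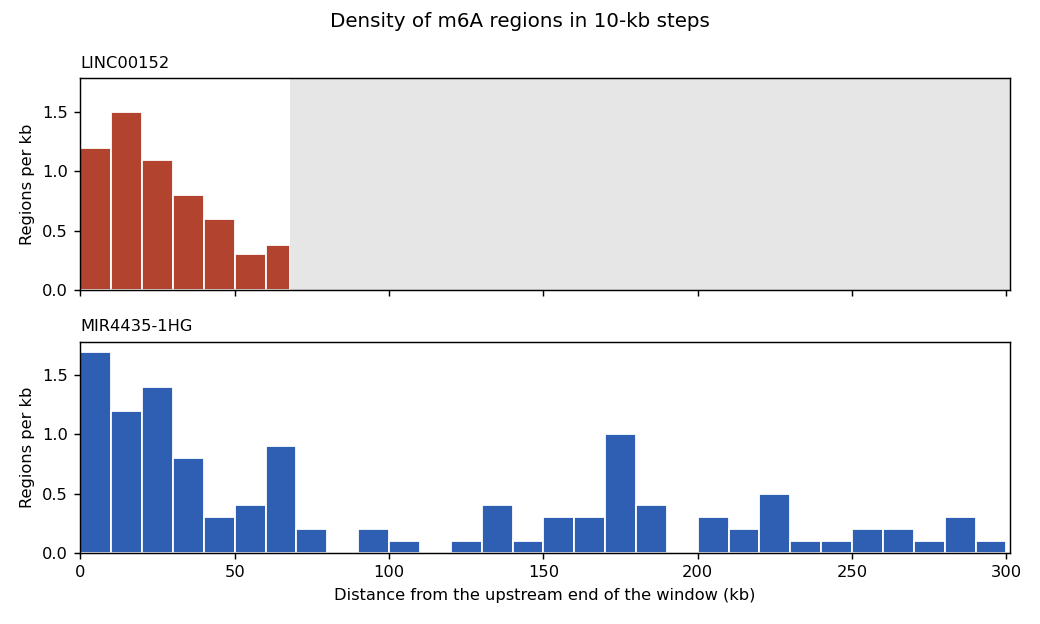
Bars give the number of m6A regions per kb (vertical) on the transcribed strand in steps of 10 kb from the upstream end of the window (kb, horizontal), with LINC00152 above and MIR4435-1HG below. The grey area lies outside the LINC00152 window. Both profiles stand above 1 region per kb in each of the first 3 steps and below it in each step from 30 to 70 kb, with MIR4435-1HG at 0.9 regions per kb in the last of these. MIR4435-1HG reaches 1 region per kb again from 170 to 180 kb.

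Beyond 68 kb MIR4435-1HG was sparse, except for a second group. From 68 to 120 kb it held 6 regions (0.115 per kb), and from 120 to 170 kb 12 regions (0.240 per kb). From 170 to 190 kb it held 14 regions (0.700 per kb), which covered 4.58% of that stretch and included a region of 232 nt from 112076626 to 112076857. From 190 kb to the downstream end at 301 kb it held 21 regions (0.189 per kb). These limits were set after the positions were seen. In GRCh38 the hairpin of MIR4435-2 lies 174.1 kb from the start of its host. That distance was not compared with the region positions base by base, because the builds differ, and a link of the group with the hairpin was not tested. The MIR4435-1 hairpin lies at a similar distance, 174.3 kb from the CYTOR start. Between 170 and 190 kb from the upstream end of LINC00152, outside its window, 6 plus-strand regions were listed.

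With the upstream end of the window set to 0 and its downstream end to 1, the mean position was 0.371 in LINC00152 and 0.324 in MIR4435-1HG. In absolute distance the median region lay 21.1 kb from the upstream end in LINC00152 and 60.7 kb in MIR4435-1HG. Neighbouring regions were close in both, with a median gap of 683 nt in LINC00152, 908.5 nt in MIR4435-1HG and 4.69 kb over same-strand neighbours of the whole list. The loci were chosen for their dense regions, so short gaps follow in part from the choice. Gaps of the whole list also include those between genes. The longest empty stretch was 4.92 kb inside LINC00152 and 19.5 kb inside MIR4435-1HG.

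Widths were nearly the same in the loci by their medians and differed more in their upper parts. The median width was 50 nt in LINC00152 (quartiles 37.25 and 95.75 nt, range 19 to 538 nt), 49 nt in MIR4435-1HG (quartiles 40 and 79.5 nt, range 19 to 271 nt) and 45 nt in the whole list (quartiles 33 and 54 nt). Regions wider than 100 nt numbered 13 of 58 in LINC00152 (22.4%) and 19 of 120 in MIR4435-1HG (15.8%), against 10.3% of the whole list. That share was 9.98% of all plus-strand regions and 10.5% of all minus-strand regions. Over the first 68 kb each locus held 13 regions of that width. No same-strand pair within the loci lay closer than 101 nt in LINC00152 or 102 nt in MIR4435-1HG.

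The region names contain the word merged, and the part of merging in the widths was not tested. Regions of exactly 49 nt, the most frequent width of the list, numbered 4 of 58 in LINC00152 (6.90%) and 13 of 120 in MIR4435-1HG (10.8%). The whole list had 5.17% of its plus-strand regions and 11.5% of its minus-strand regions at that width, 8.79% in all. The shares in the loci were near those of their strands.

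**Figure D3:**
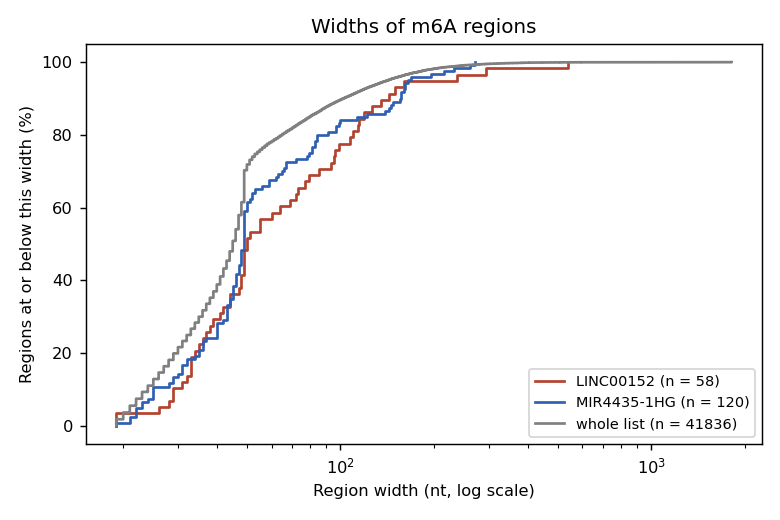
The curves give the share of regions (%, vertical) at or below each width (nt, log scale, horizontal) for LINC00152 (n = 58), MIR4435-1HG (n = 120) and the whole list (n = 41836). From 30 to 100 nt the curves of both loci run below that of the whole list, the medians are 50 nt in LINC00152, 49 nt in MIR4435-1HG and 45 nt in the whole list, and all 3 curves step up at 49 nt.

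The widest region of LINC00152 had 538 nt, from 87776017 to 87776554, 22.3 kb from the upstream end. The next widest had 293 nt (87756500 to 87756792), 237 nt (87772123 to 87772359), 160 nt (87793714 to 87793873) and 150 nt (87777344 to 87777493). In MIR4435-1HG the widest regions had 271 nt (112223388 to 112223658) and 261 nt (112213968 to 112214228). They were followed by regions of 232 nt, of 215 nt (112232067 to 112232281) and of 195 nt (112200402 to 112200596). The widest region of LINC00152 was thus nearly 2 times as wide as that of MIR4435-1HG. Of the 5 in MIR4435-1HG only the one of 232 nt lay beyond 68 kb, where 53 of its 119 minus-strand regions lay. The LINC00152 window ends at 68 kb.

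Since the copies lie in opposite orientation, a position in LINC00152 and its counterpart in MIR4435-1HG should add up to a constant. All 6902 pairs of a LINC00152 region and a minus-strand MIR4435-1HG region were sorted by the sum of their midpoints, in steps of 100 nt. The most frequent sum, in the step from 200007600, was shared by 16 pairs, and the next, in the step from 200007300, by 15 pairs. At least 1 kb away from the first the most frequent sum was shared by 13 pairs. The same search between LINC00152 and the 3 largest minus-strand chains of other chromosomes gave at most 16 pairs on chromosome 8 (254 regions), 13 on chromosome 11 (91 regions) and 11 on chromosome X (77 regions). A single constant over the whole locus thus gave no more pairs than the highest of these dense loci that are not copies.

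The constant itself changes along the genes. In GRCh38 the sum of matching exon positions, relative to its value at the first exon, was shifted by -320 to -309 nt at the blocks 14.5 to 25.2 kb from the CYTOR start, and by 297 to 306 nt at the blocks 48.1 to 66.1 kb from it. The sum of region midpoints in hg19 was followed with these shifts, -319 nt from 10 to 40 kb and 297 nt beyond 40 kb. Its value in the first 10 kb was the median sum of the pairs in the most frequent step. That constant was therefore fitted to these same regions, and only the shifts came from the exons. The use of these shifts and the limits at 10 and 40 kb were set after the positions were seen. A counterpart was then any MIR4435-1HG region that overlapped the mirrored LINC00152 region by at least 1 nt.

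With 1 fixed constant 16 of 58 LINC00152 regions had a counterpart within 50 nt, and 19 by the rule of overlap. With the shifts, 40 of 58 (69.0%) had one by the rule of overlap, and 42 of the 66 minus-strand regions in the first 68 kb of MIR4435-1HG (63.6%) were counterparts. In the first 10 kb 12 of 12 LINC00152 regions had one, with midpoints at most 26.75 nt from the mirrored position. The constant was fitted to sums that include those of these regions, so the close match there follows in part from the fit. From 10 to 40 kb 21 of 34 had one, and from 40 to 68 kb 7 of 12. Each stretch matched best on its own constant, which follows in part from how the constants and limits were chosen. The first stretch had 2 matches on the constant of the second and 2 on that of the third. The second stretch had 6 matches on the constant of the first and 5 on that of the third. The third stretch had 2 matches on the constant of the first and 0 on that of the second.

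Constants 1 to 20 kb away from these gave fewer matches. The first constant was the most frequent sum of these same pairs, so this difference is in part built in and supports nothing by itself. The best of them reached 7 of 12 in the first stretch, 13 of 34 in the second and 4 of 12 in the third. Against the chains on chromosomes 8, 11 and X, with the constant chosen freely, the best were 7, 6 and 6 of 12 in the first stretch and 14, 12 and 12 of 34 in the second. In the third stretch they were 6, 7 and 6 of 12. With few regions a free constant thus did as well there as the fitted one shifted by the exon matches. These are counts from 1 list and were not tested.

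**Figure D4:**
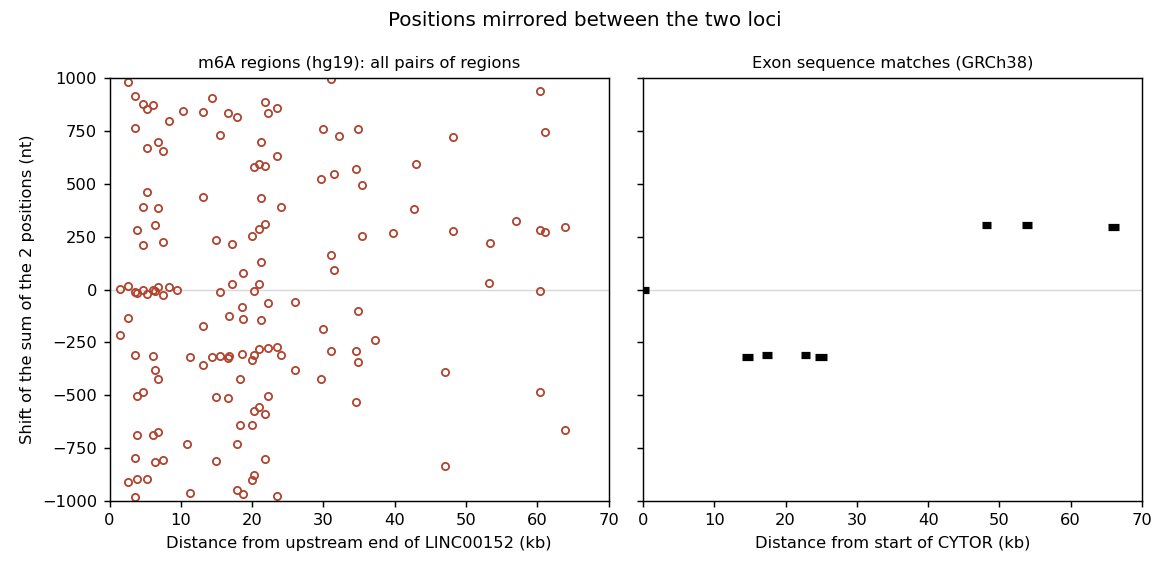
Left, pairs of a LINC00152 and a minus-strand MIR4435-1HG region whose midpoints sum to within 1 kb of the constant of the first 10 kb. They are placed in hg19 by the distance of the LINC00152 region from the upstream end (kb, horizontal) and by the sum relative to that constant (nt, vertical). Right, the same for the 8 blocks of matching exon sequence within 70 kb in GRCh38; the pairs line up near 0 in the first 10 kb, near -319 nt from 10 to 40 kb and, more sparsely, near 297 nt beyond 40 kb.

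Counterparts overlapped the mirrored region by definition, and they seldom had the same limits. Of the pairs, 36 joined 1 region of LINC00152 with 1 of MIR4435-1HG. Their midpoints were a median of 15 nt from the mirrored position, and they overlapped by a median of 45.5 nt. Their median width was 52.5 nt in LINC00152 and 66.5 nt in MIR4435-1HG. The LINC00152 region was the wider one in 13 pairs and the MIR4435-1HG region in 21, and the widths were equal in 2.

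Among the 5 pairs with the closest midpoints, a LINC00152 region of 95 nt from 87758691 to 87758785 faced one of 100 nt from 112248835 to 112248934 in MIR4435-1HG. One of 99 nt from 87760050 to 87760148 faced one of 49 nt from 112247500 to 112247548. One of 37 nt from 87765319 to 87765355 faced one of 37 nt from 112241950 to 112241986. These lay within 12 kb of the upstream end of LINC00152. Further along, one of 49 nt from 87768380 to 87768428 faced one of 46 nt from 112238879 to 112238924. The last region of LINC00152, of 49 nt from 87817867 to 87817915, faced one of 46 nt from 112190005 to 112190050. The first regions of both loci also faced each other, with 41 nt from 87755431 to 87755471 in LINC00152 and 43 nt from 112252155 to 112252197 in MIR4435-1HG.

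Wide regions of one copy could face several narrower ones of the other. The 538-nt region of LINC00152 faced 3 regions of MIR4435-1HG, of 169, 23 and 59 nt. The 293-nt region faced 2, of 29 and 72 nt. The 271-nt region of MIR4435-1HG in turn faced 2 regions of LINC00152, of 55 and 29 nt. Regions with a counterpart were wider than those without: their median was 55 nt against 48 nt in LINC00152, and 66.5 nt against 48 nt in the first 68 kb of MIR4435-1HG. A wider region meets a counterpart more easily under a rule of overlap, and that part was not tested. No counterpart was listed for 18 regions of LINC00152 and for 24 regions in the first 68 kb of MIR4435-1HG.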

How the data were processed

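Antibodies against m6A (2 libraries) or control IgG (1 library) were used to capture nuclear RNA of MDA-MB-231 cells, which was eluted with free m6A and made into libraries with a ScriptSeq V2 kit, per the labels' protocols. The submitters' processing notes name Bowtie2 as a tool and hg19 as the build. Not given in the sources used here are the peak caller and its thresholds, the use of IgG, the way the m6A libraries were combined and the treatment of reads with several matches. The deposited list gives start, end and strand, and the score as deposited by the authors is 1 for every region. It holds 0 columns of single libraries, so no depth, interval or paired check could be given. Positions are counted from 1 with the end included.

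Regions were assigned by midpoint, joined into chains at up to 10 kb, and mirrored between the loci as described. Promoters and microRNAs are from RefSeq (GRCh38.p14), exons from GENCODE release 29 (GRCh38). No coordinate was converted between builds, no hg19 sequence was used, and exon positions of regions and motifs, planned in the design, were not analysed here. The members, lists and limits were chosen with earlier results of these data known. The regions named are the 5 widest, the first and last, those on the other strand and the 5 closest pairs of each locus; those that face several regions, and the single-step values, were picked after they were seen. The matching of counterparts was run on simulated loci with the planted constant, shifts and limits given to it, so the search for the constant was not tested. Python 3.11.15, numpy 2.4.6, pandas 2.3.3 and matplotlib 3.10.9 were used.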

Additional observations from a re-analysis of the deposited data

How the results depend on the processing

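Of 31 alternatives, 20 left a value within 1.5 times its reported one. The density ratio of LINC00152 over MIR4435-1HG was 0.866, in place of 2.14, when MIR4435-1HG was restricted to its first 68 kb, where its density was 0.985 per kb. The whole-window value thus depends on the unequal window lengths. LINC00152 fell to 0.429 per kb from 40 to 68 kb, and the MIR4435-1HG window includes a further 233 kb with minus-strand regions at 0.227 per kb. The difference in median width, 1 nt, turned to -11.5 nt among regions with a counterpart; the cause was not tested. With regions wider than the list's median alone, fewer regions remain by construction: 37 in LINC00152 (0.544 per kb) and 74 in MIR4435-1HG (0.246 per kb). On 1 fixed constant, 16 LINC00152 regions had a counterpart within 50 nt, 3 within 10 nt, 29 within 200 nt and 19 by an overlap of 1 nt. Pairs in mirrored order with a freely drifting constant numbered 44, against 48, 39 and 26 with the chains of chromosomes 8, 11 and X, and that count does not set the copies apart from other dense loci. The shifts from the exons, an alternative chosen after seeing the data, gave 40 by the same overlap. No paired analysis was possible because no single library has values in the list, and for the same reason no library could be left out. The stricter score could not be run, since 1 score is given for all regions.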

Other observations

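The regions went on beyond the LINC00152 window. In the next 233 kb, to the length of MIR4435-1HG, 23 plus-strand and 0 minus-strand regions were listed, from 87843323 to 87994154, at 0.0987 per kb. The same stretch of MIR4435-1HG held 53 minus-strand regions at 0.227 per kb. The median width was 46 nt in the LINC00152 stretch and 46 nt in that of MIR4435-1HG. With the constant used beyond 40 kb, 10 of the 23 regions had a counterpart in MIR4435-1HG, and the best constant 1 to 20 kb away gave 5. In GRCh38 the exon sums beyond 70 kb were shifted by 300 to 314 nt from the first exon, beside the 297 nt used. Between 170 and 190 kb from the upstream end, 6 regions were listed downstream of the LINC00152 window and 14 in MIR4435-1HG. A counterpart of the 232-nt region of MIR4435-1HG was a region of 93 nt from 87931232 to 87931324. Counting both stretches, 81 plus-strand regions followed the upstream end of LINC00152 over 301 kb and 119 minus-strand regions that of MIR4435-1HG. The extension was examined after the list was seen and was not tested.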
